A study of Mus musculus with 32 samples.

Results

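The genes described here are 8 members of the chemokine system of activated T cells: the ligand genes Ccl1, Ccl3, Ccl4, Ccl5 and Xcl1 and the receptor genes Ccr2, Ccr8 and Cxcr6. They were listed by name, with earlier results of these data known, and found by gene symbol in the annotation of the arrays, where all 8 were present among 22180 named genes at 48 h and all 8 among 17097 named genes at 72 h. Ccr8 changed most at 48 h. It rose 21.4-fold to 33.7-fold with antigen in 3 media poor in an amino acid. With antigen present it was 2.47-fold to 2.97-fold higher in those media than in medium with no stated reduction. At 72 h the antigen effect on Ccr8 missed the threshold. Ccl4 had the widest range of group means there, 3.82 against 2.42 for Ccr8. Ccl3 rose 2.04-fold to 2.05-fold with antigen in each poor medium, and Ccl4 rose 2.48-fold at 48 h when the macrophages in the culture had been pretreated with IL-4 and IL-10. Ccl1, Xcl1, Ccr2 and Cxcr6 passed the threshold in none of the 12 comparisons made.

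Chemokines are small secreted proteins that direct the migration of cells carrying the matching G protein-coupled receptor. After a T cell recognises antigen, it exchanges the receptors that keep it in lymph nodes for receptors that lead it to inflamed tissue, and it secretes chemokines that draw in other cells. Ccl3, Ccl4 and Ccl5 encode the inflammatory chemokines MIP-1alpha, MIP-1beta and RANTES, which macrophages can also make, and Xcl1 encodes lymphotactin, which attracts dendritic cells that carry XCR1. Ccl1 encodes a ligand of CCR8, a receptor known from Th2 cells and regulatory T cells. CCR2 binds CCL2, CCL7 and, in mice, CCL12. CXCR6 binds CXCL16 and marks effector and memory T cells in tissue.

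The CD4+ T cells came from Balb/c mice that carry the DO11.10 T cell receptor transgene and were taken from cervical and axial lymph nodes. That receptor recognises an ovalbumin (OVA) peptide. Every culture, the controls included, also held macrophages collected from the peritoneal cavity after thioglycollate injection, which served as antigen-presenting cells. CD4+ cells were sorted from the cultures, so the arrays measured the sorted fraction and not the whole culture. At 48 h there were 8 groups on 23 arrays. Of these, 3 groups received OVA peptide in RPMI in which a single amino acid (arginine, leucine or lysine) was cut to 1% of normal (3 arrays each), and 3 groups were kept in the same media with macrophages and no peptide (2 arrays for arginine, 3 each for leucine and lysine). The other 48 h groups received OVA in medium for which no reduction was stated, called full medium here, with macrophages left untreated (3 arrays) or pretreated overnight with IL-4 and IL-10 at 10 ng/mL each to induce arginase-1 and then washed (3 arrays). At 72 h a different type of array measured 3 groups of 3 arrays: no peptide, OVA, and OVA with macrophages pretreated in the same way. The analysis has no 48 h group in full medium without peptide, so the antigen effect in full medium was measured at 72 h only. Nothing in the labels says whether replicates came from separate cultures or animals, so a p-value here reflects only how far these samples vary, which may be technical. At 48 h, 7 of the 8 groups held 1 array with low Y-linked and high Xist levels beside arrays with the reverse, as given below. Replicates in those groups were therefore not all taken from 1 pool of cells.

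Values are log2 expression, on which a difference of 1 is a doubling, and levels were never set against each other between the 2 types of array. A gene is said to rise or fall where limma gave it a Benjamini-Hochberg adjusted p below 0.05 over all genes of the array, and differences are given with their standard error. The number of arrays, 2 or 3 a group, limits the precision. With so few arrays, groups often do not overlap. In a given comparison and direction, 8.78% to 34.6% of all genes had fully separated arrays. The defining genes of CD4 T cells were well represented: of 13 listed, 10 were measured at 48 h and 11 at 72 h, and none lay below its array's median in any group. The level of macrophage transcripts is given with the ligand results. On the 72 h arrays, 9 of 14 measured macrophage markers lay below the array median with OVA. Without peptide 3 of them did, and with OVA and pretreatment 6. A marker below the median was not shown to be present. At 72 h the cells without peptide also carried mesothelial and stromal transcripts, with a mean level over 15 markers of 9.59 to 9.83 against 4.14 to 4.48 with OVA and 4.46 to 6.10 with OVA and pretreatment. In sorted bulk samples such as these, fewer cells of a type and less RNA per cell cannot be told apart.

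Arrays also stood apart within groups. At 48 h, 7 arrays had low levels of the Y-linked genes Kdm5d, Eif2s3y and Uty (mean 4.29 to 4.62) with Xist at 10.2 to 11.66, and 16 arrays had high Y-linked levels (7.08 to 8.54) with Xist at 5.37 to 7.85. Every 48 h group held 1 of the low arrays except the low arginine group without peptide, which held none. The low arrays were those with the submitters' numbers 2 to 6, 33 and 34, so this split follows the numbering. At 72 h all 9 arrays carried Xist at 8.39 to 12.37 with Y-linked means of 3.53 to 7.50, so that Xist was high throughout. A fit with the Y-linked level as a block, chosen after seeing the data, kept all 13 calls of the members at 48 h and added that of Ccl1 given below.

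**Figure D1:**
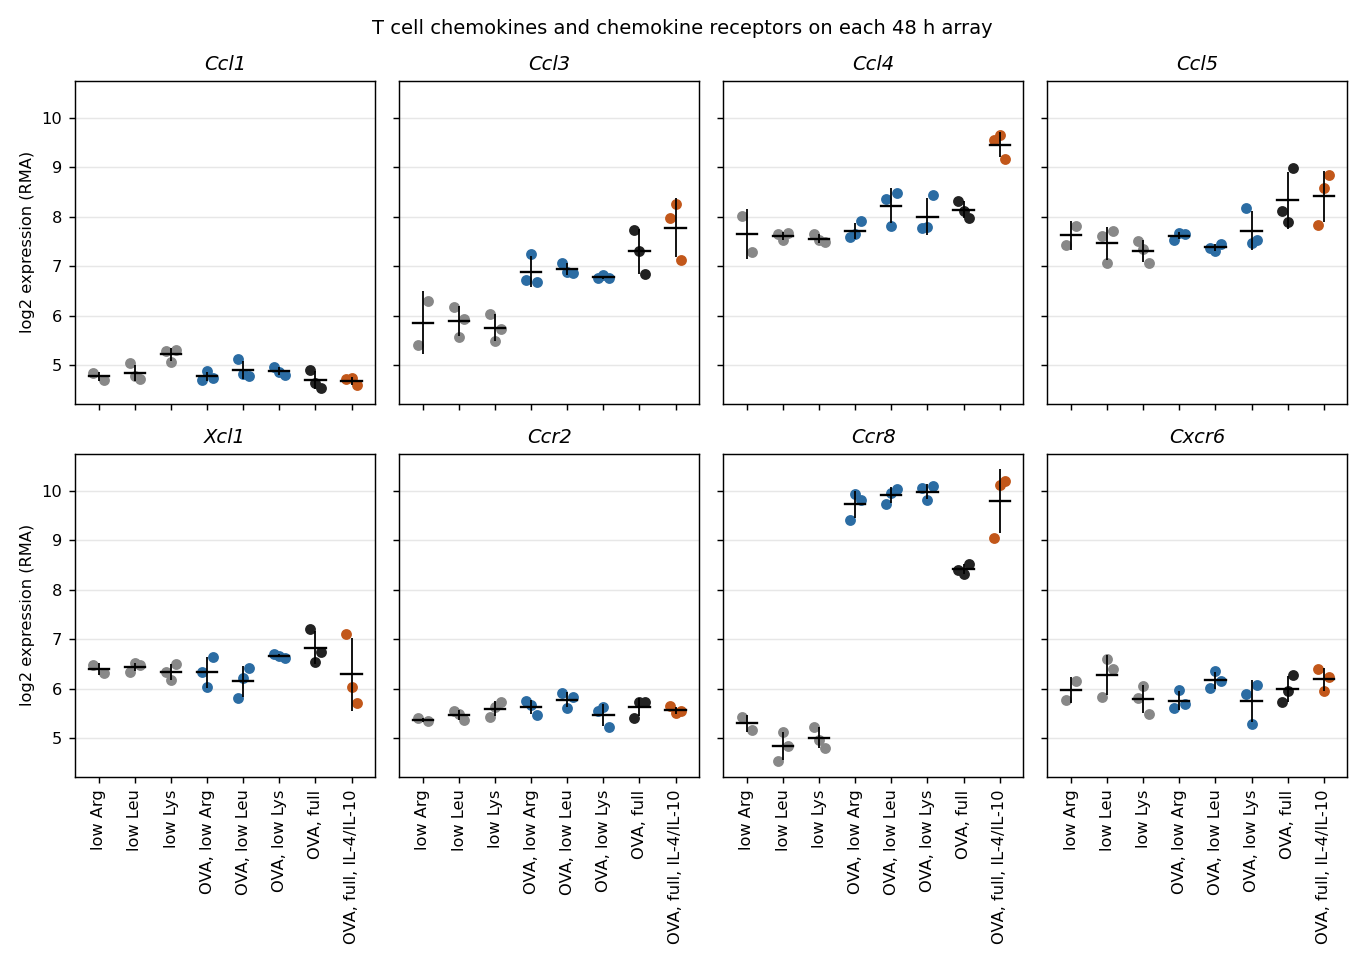
Log2 expression of the 8 genes on each of the 23 arrays at 48 h, by group; points are arrays, horizontal bars are group means and vertical lines are 1 SD. Ccr8 lies between 4.55 and 5.43 in all arrays without OVA, between 8.32 and 8.51 with OVA in full medium, and at 9.04 or above in the other OVA groups.

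Among the receptors, Ccr8 separated cells with antigen from cells without it in each poor medium. Without peptide its level was 5.43 and 5.17 in low arginine, 4.55, 5.12 and 4.84 in low leucine, and 5.23, 4.97 and 4.81 in low lysine. With OVA it was 9.41, 9.94 and 9.80 in low arginine, 9.73, 9.96 and 10.04 in low leucine, and 10.05, 9.80 and 10.10 in low lysine. The lowest array with OVA was thus far above the highest array without it. The rise was 4.42 ± 0.25 in low arginine (21.4-fold, 95% interval 15 to 30.5, adjusted p = 7.01e-12), 5.07 ± 0.22 in low leucine (33.7-fold, 24.5 to 46.4, adjusted p = 1.14e-13) and 4.97 ± 0.22 in low lysine (31.4-fold, 22.8 to 43.3, adjusted p = 1.13e-13). Ordered by the size of the rise among all 22180 genes, Ccr8 stood at place 16 in low arginine, 4 in low leucine and 5 in low lysine. The antigen effect on Ccr8 did not differ detectably between the 3 media (moderated F test, adjusted p = 0.71), and neither did its level without peptide (adjusted p = 0.874).

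Of the 8 members, 2 rose with antigen in low arginine, Ccr8 and Ccl3, where 17.2% of all genes rose and 29.4% passed the threshold in either direction. In low leucine 3 rose, with Ccl4 added, where 21.8% of all genes rose and 41.3% passed, and in low lysine 2 rose, again Ccr8 and Ccl3, where 18.4% rose and 31.0% passed. With 8 members these counts lie near the shares of all genes and are no result about the members as a group. The median change over the 8 members was 0.03, 0.19 and 0.37 in low arginine, leucine and lysine, beside -0.117, -0.128 and -0.092 over all genes. Centring each array on its median turned the last 3 values to 0.105, 0.110 and 0.097, and the share of called genes that were higher went from 58.5% to 86.6% in low arginine, from 52.7% to 82.2% in low leucine and from 59.4% to 84.3% in low lysine, so small antigen effects are read with that shift in mind.

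Regulatory T cell genes rose with antigen too. Of 8 such genes, among them Foxp3, Il2ra and Ctla4, 7 rose with antigen in each poor medium. Of all genes, 17.2%, 21.8% and 18.4% rose in low arginine, leucine and lysine. The mean level of the 8 genes was 6.28 to 6.55 without peptide and 8.15 to 8.73 in the OVA groups of 48 h. Their part in the Ccr8 result was not tested. The list also holds genes that conventional T cells induce on activation. In the comparison of poor with full medium below, Ccr8 was higher again. Of the 8 regulatory T cell genes, 1, 0 and 0 rose in low arginine, leucine and lysine, where 1.51%, 1.15% and 2.49% of all genes rose. With pretreatment, where Ccr8 rose, 1 of 8 rose at 48 h and 2 of 7 measured at 72 h. Of all genes, 2.71% and 3.78% rose. The median of the list was then 0.21 at 48 h and 0.43 at 72 h, beside 0.008 and 0.02 over all genes. Its mean level at 72 h was 8.29 to 8.97 with pretreatment and 8.05 to 8.34 with OVA alone. At 72 h antigen raised 6 of the 7, where 20.7% of all genes rose. Their median change was 2.46, with a mean level of 5.10 to 5.28 without peptide and 8.05 to 8.34 with OVA. Ccr8 was not called in that comparison and lay below the array median in both groups.

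The stretch upstream of Ccr8 is shown with that of Ccl3, the other member that rose with antigen in all 3 poor media. The sequences are the 250 bases before each gene's start in the RefSeq promoter table (build GRCm38.p6), which held 6 of the 8 members; Ccl4 and Ccl5 were not among them. Capitals mark matches to GGAAA on either strand, the core bound by NFAT, a factor activated by T cell receptor signals; TTTCC is the same match on the other strand.
Ccr8, chr9:120091883-120092132, plus strand: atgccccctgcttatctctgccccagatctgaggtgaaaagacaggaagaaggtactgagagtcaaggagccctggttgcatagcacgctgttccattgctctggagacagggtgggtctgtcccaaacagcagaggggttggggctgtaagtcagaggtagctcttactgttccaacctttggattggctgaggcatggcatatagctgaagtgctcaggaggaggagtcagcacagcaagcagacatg
Ccl3, chr11:83649379-83649628, minus strand: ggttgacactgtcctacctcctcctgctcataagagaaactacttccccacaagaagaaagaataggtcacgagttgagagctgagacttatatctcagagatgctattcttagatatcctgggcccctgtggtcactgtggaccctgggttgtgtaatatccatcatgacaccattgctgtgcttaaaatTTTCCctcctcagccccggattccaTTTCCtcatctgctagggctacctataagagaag
The Ccl3 window held 2 matches and the Ccr8 window 0, while 55.6% of 32851 promoters of the same length held at least 1. TGANTCA (the AP-1 motif, in 6.75% of promoters), GGGNN directly followed by TTTCC (an NF-kB motif, 1.41%) and TGATGNAA (an ATF4 response element, 3.45%), searched on both strands, were found in neither window. The other 4 windows held 3 GGAAA matches in Ccl1, 1 in Xcl1, 3 in Ccr2 and 3 in Cxcr6, and none of the other 3 motifs. A match to the NF-kB motif would hold TTTCC and so overlap a GGAAA match.

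With antigen present, Ccr8 was also higher in the poor media than in full medium. Its level with OVA in full medium was 8.40, 8.32 and 8.51, and all 9 arrays in the poor media were above these. The difference was 1.31 ± 0.22 in low arginine (2.47-fold, 95% interval 1.80 to 3.40, adjusted p = 0.000867), 1.5 ± 0.22 in low leucine (2.83-fold, 2.05 to 3.89, adjusted p = 0.000217) and 1.57 ± 0.22 in low lysine (2.97-fold, 2.16 to 4.09, adjusted p = 0.00014). The pretreated group was also higher: at 9.04, 10.12 and 10.20 its arrays were all above full medium, by 1.38 ± 0.22 (2.59-fold, 1.88 to 3.57, adjusted p = 0.000355). These 4 comparisons share the same 3 control arrays and are not independent of each other. Each of the 4 calls held under every alternative processing and with any 1 array left out. The poor-medium arrays carry the submitters' numbers 2 to 18 and the full-medium arrays 33 to 40, so medium and numbering cannot be told apart in 3 of these comparisons; the pretreated and control arrays were numbered together in pairs.

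Between the 3 poor media, with OVA, Ccr8 differed by -0.19 (95% interval -0.66 to 0.27) for arginine minus leucine, -0.26 (-0.73 to 0.20) for arginine minus lysine and -0.07 (-0.53 to 0.39) for leucine minus lysine. None of these passed the threshold, and the intervals still allow differences of up to 0.73. Ordered by mean, the 48 h levels of Ccr8 ran from low lysine with OVA (9.98 ± 0.16, SD, n = 3) through low leucine (9.91 ± 0.16), pretreated macrophages (9.79 ± 0.65) and low arginine (9.72 ± 0.27), whose arrays overlap, to full medium (8.41 ± 0.10) and then to the groups without peptide (5.30, 5.01 and 4.84).

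Pretreatment raised Ccr8 at 72 h as well. Its level was 2.94, 2.92 and 2.83 without peptide, 3.46, 3.33 and 3.55 with OVA, and 6.36, 4.50 and 5.10 with OVA and pretreated macrophages. Pretreatment raised it by 1.87 ± 0.35 (3.66-fold, 95% interval 2.14 to 6.28, adjusted p = 0.0099). The antigen effect alone, 0.55 ± 0.35, missed the threshold (adjusted p = 0.262), although the 3 arrays with OVA were all above the 3 without it, as for 25.6% of all genes. In these 2 groups Ccr8 was dim, below the array medians of 3.87 to 4.04. It stood at percentile 4.4 of the genes without peptide and 30.7 with OVA. Changes of dim genes are understated on this scale, which limits what this comparison shows. In fits of these 2 groups alone, whose spread was smaller (SD 0.06 and 0.11 against 0.95 with pretreatment), the antigen effect passed (adjusted p = 0.000837), also with the replicate number as a block (adjusted p = 0.00323). With consecutive submitter numbers as a block, which leaves few arrays to compare, the antigen effect was 0.57 ± 0.09 (adjusted p = 0.0199). The pretreatment difference with that block was 2.04 ± 0.48 (adjusted p = 0.341), where 0 genes in all were called.

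**Figure D2:**
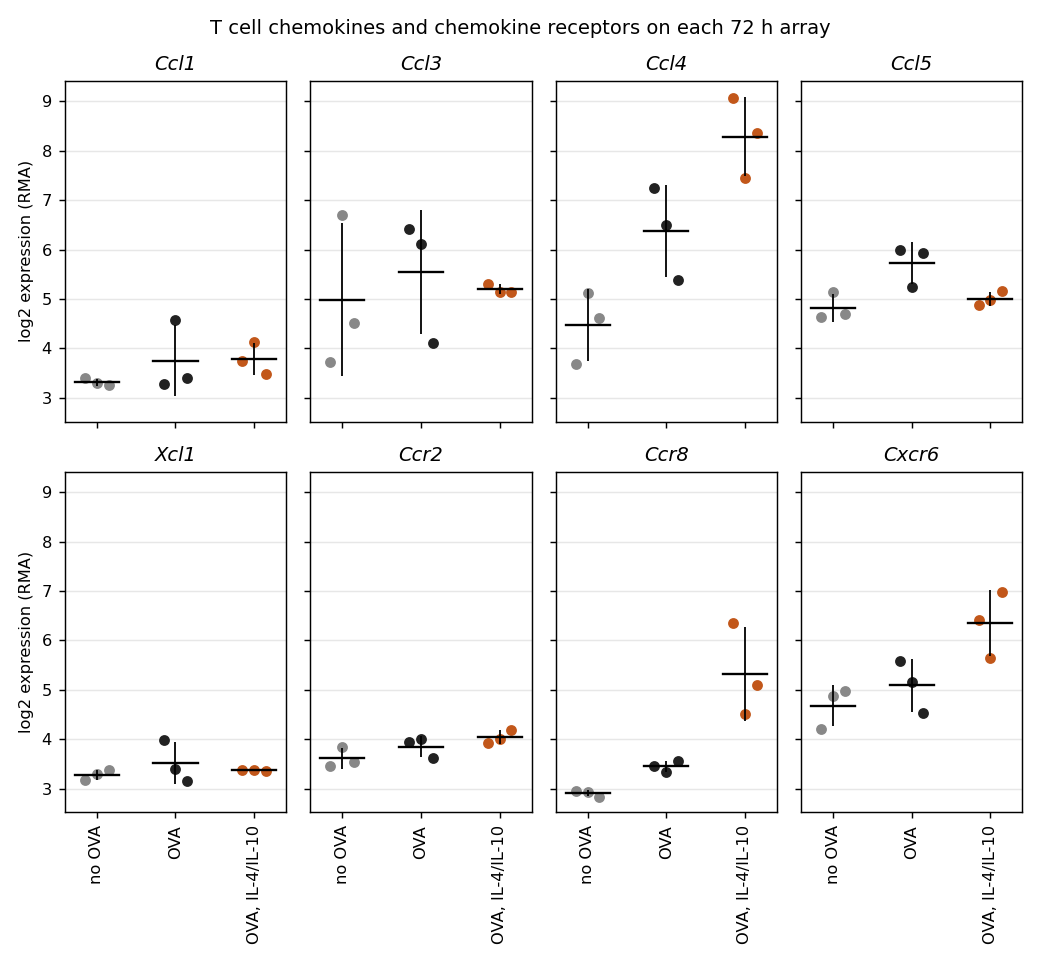
Log2 expression of the 8 genes on each of the 9 arrays at 72 h, by group; points are arrays, horizontal bars are group means and vertical lines are 1 SD. Ccl4 means are 4.47, 6.38 and 8.29 from no peptide to OVA to OVA with pretreatment, and Ccr8 is at 4.50 or above with pretreated macrophages and at 3.55 or below elsewhere.

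Cxcr6 showed a difference of similar direction at 72 h that did not pass the test. Its level was 4.2, 4.88 and 4.97 without peptide, 5.59, 5.16 and 4.52 with OVA, and 6.41, 5.65 and 6.99 with OVA and pretreatment. All 3 pretreated arrays were above all 3 OVA arrays, as for 13.2% of all genes, by 1.26 ± 0.38 (2.39-fold, 95% interval 1.35 to 4.25, adjusted p = 0.0596). Quantile normalization brought the adjusted p to 0.0487, and leaving out pretreated replicate 2 gave 1.61 ± 0.36 (adjusted p = 0.0154). These were the only 2 passes among 14 alternatives, whose differences ran from 0.65 to 1.61 with adjusted p up to 0.406. A second Cxcr6 probe set on the array, tested on its own, gave 1.09 ± 0.37 (adjusted p = 0.111). At 48 h the Cxcr6 differences lay between -0.41 and 0.42 in the 10 comparisons, with no adjusted p below 0.349.

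Cxcr6 was low on the 48 h arrays of low Y-linked level. In each of the 7 groups that held an array of low Y-linked level, that array had the lowest Cxcr6 of its group, by 0.22 to 0.70 below the mean of the others and by 0.43 on average. Ccr8 was lowest on that array in 5 of the 7 groups, and Ccl1, Ccl3 and Ccr2 were highest on it in 5 of 7. Ccl4, Ccl5 and Xcl1 were at an extreme on it in 4, 3 and 4 groups. The low arrays lie together in the submitters' numbering, so Y-linked level and numbering cannot be told apart. This pattern was noticed in the data and not tested. Over the 9 arrays at 72 h, Pearson's r of Cxcr6 was -0.054 with Kdm5d and 0.057 with Eif2s3y.

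Ccr2 stayed within a narrow range. At 48 h its 23 arrays lay between 5.23 and 5.91, and its 10 differences between -0.16 and 0.31, none past the threshold (lowest adjusted p 0.0751). With antigen in low leucine it was 5.91, 5.61 and 5.83 against 5.56, 5.49 and 5.36 without, a difference of 0.31 ± 0.14 (adjusted p = 0.0751), and in low arginine 0.26 ± 0.16 (adjusted p = 0.21). Centring, which turns the overall shift between arrays with and without antigen as given above, and quantile normalization gave, in that order, 0.55 (adjusted p = 0.00183) and 0.54 (0.0021) in low leucine and 0.48 (0.0161) and 0.48 (0.0164) in low arginine. Leaving out low leucine OVA replicate 2 gave 0.40 (adjusted p = 0.0492). In low leucine 3 of 15 alternatives passed, and the others had adjusted p up to 0.208. At 72 h, 4 probe sets named Ccr2, and none differed past the threshold in either comparison; the set that stands for the gene lay between 3.45 and 4.19 on all 9 arrays.

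Among the ligands, Ccl3 rose with antigen by about the same amount in all 3 poor media. Without peptide it was 5.41 and 6.30 in low arginine, 6.18, 5.58 and 5.94 in low leucine, and 6.03, 5.50 and 5.74 in low lysine. With OVA it was 6.73, 7.25 and 6.68 in low arginine, 7.07, 6.89 and 6.86 in low leucine, and 6.77, 6.82 and 6.76 in low lysine. All arrays with OVA were above all arrays without it. The rise was 1.03 ± 0.30 (2.04-fold, 95% interval 1.33 to 3.12, adjusted p = 0.0114), 1.04 ± 0.26 (2.05-fold, 1.40 to 3.00, adjusted p = 0.00327) and 1.03 ± 0.26 (2.04-fold, 1.39 to 2.98, adjusted p = 0.00471). The 3 effects did not differ detectably (moderated F test, adjusted p = 1.0). In low arginine, where the group without peptide holds 2 arrays, the call was lost without replicate 1 of that group (0.59, adjusted p = 0.275) and without OVA replicate 2 (0.85, adjusted p = 0.0569).

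Macrophage transcripts moved as a set in the same comparisons, downwards. The mean level of 14 measured macrophage markers, of 15 listed, was 6.50 to 6.84 on the arrays without peptide and 5.68 to 6.27 on the arrays with OVA in the poor media, and with antigen 7, 9 and 6 of the 14 fell in low arginine, leucine and lysine and 0 rose. Of all genes, 12.2%, 19.5% and 12.6% fell. Between 4 and 7 of the 14 lay below the array median in each of these 6 groups, Cd14, C1qc, Mertk and Marco in all of them, and the other markers did not. Ccl6, a chemokine that myeloid cells make, rose in the same comparisons, as given below. The part of macrophage RNA in the Ccl3 result was not tested.

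**Figure D3:**
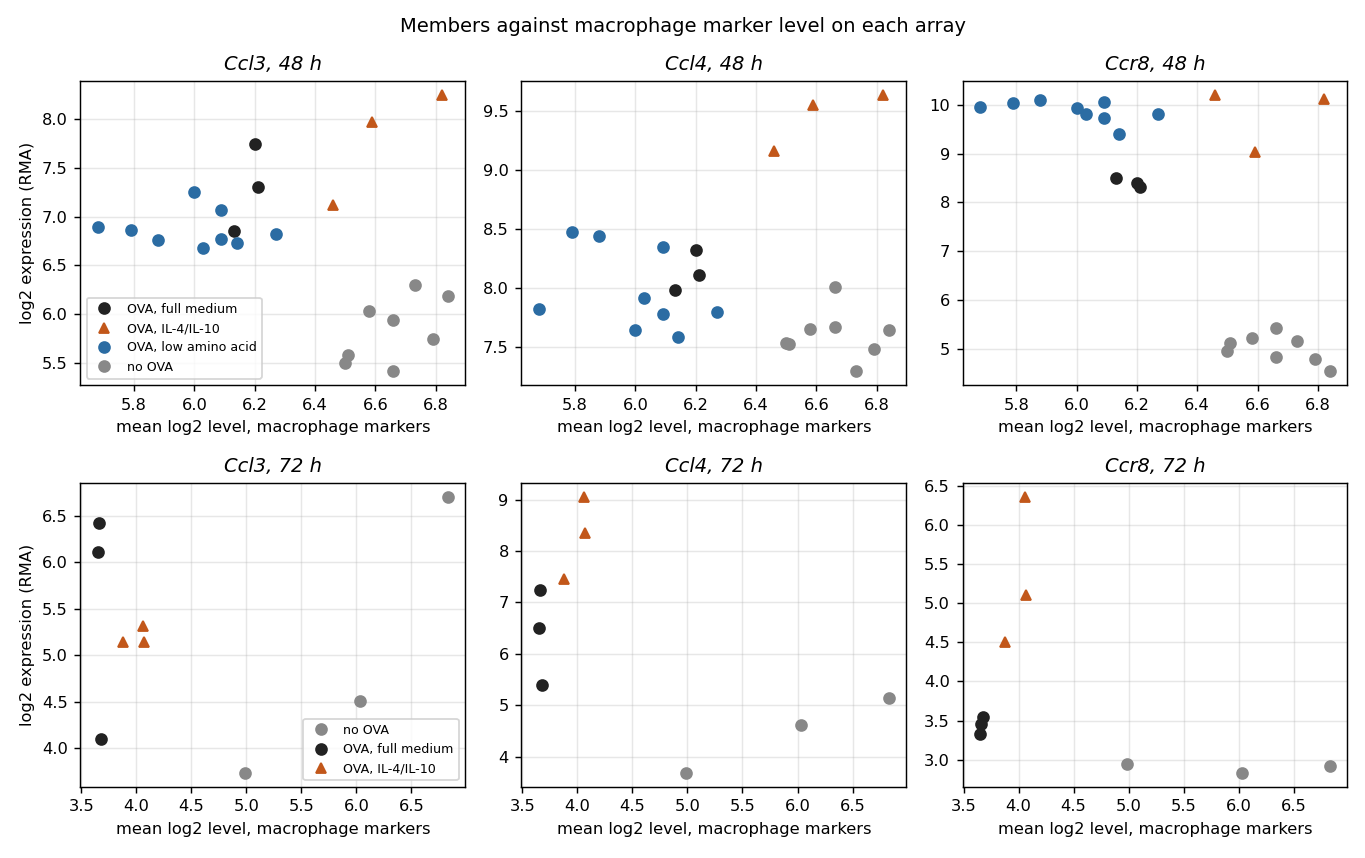
Log2 expression of Ccl3, Ccl4 and Ccr8 (vertical axes) against the mean log2 level of the macrophage markers (horizontal axes) on each array, at 48 h above and 72 h below, by group. At 48 h the arrays without OVA have high macrophage levels with the lowest Ccl3 and Ccr8, while the arrays with pretreated macrophages have high macrophage levels together with the highest Ccl4.

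Ccl3 changed less with the medium or the macrophages. With OVA in full medium it was 7.74, 7.30 and 6.85, and the differences of low arginine, leucine and lysine from it were -0.41 ± 0.26, -0.36 ± 0.26 and -0.52 ± 0.26 (adjusted p = 0.494, 0.67 and 0.236). With pretreated macrophages at 48 h it was 7.97, 8.25 and 7.12, a difference of 0.48 ± 0.26 (adjusted p = 0.339) that became 0.81 ± 0.26 (adjusted p = 0.0486) without replicate 3. That was the 1 pass among 15 alternatives. Leaving out 1 array gave between 0.24 and 0.81, with adjusted p up to 0.765. At 72 h the spread within groups was wide. The arrays read 3.73, 6.71 and 4.51 without peptide, 6.42, 6.11 and 4.10 with OVA, and 5.31, 5.14 and 5.14 with pretreatment. Neither the antigen effect (0.56 ± 0.72, 95% interval -1.03 to 2.15, adjusted p = 0.603) nor that of pretreatment (-0.35 ± 0.72, -1.93 to 1.24, adjusted p = 0.835) passed. The 72 h arrays without peptide with the highest Ccl3 also had the highest macrophage level, with 3.73, 6.71 and 4.51 for Ccl3 beside 4.99, 6.83 and 6.03 for the macrophage list; its part in the result was not tested.

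Ccl4 was the ligand that rose with pretreated macrophages, at both times. At 48 h it was 8.32, 8.11 and 7.98 with OVA alone and 9.55, 9.64 and 9.16 with pretreatment, groups that do not overlap. The rise was 1.31 ± 0.20 (2.48-fold, 95% interval 1.87 to 3.30, adjusted p = 0.000187) and was called under every alternative and with any 1 array left out. At 72 h it was 7.24, 6.50 and 5.39 with OVA alone and 9.06, 7.45 and 8.36 with pretreatment, again without overlap. The rise was 1.91 ± 0.53 (3.77-fold, 1.68 to 8.45, adjusted p = 0.045). The 72 h call is near the threshold. It was lost under 4 of the alternative settings, in the fit over all probe sets (adjusted p = 0.053) and without OVA replicate 2 (1.98, adjusted p = 0.0839), OVA replicate 3 (1.42, 0.173), pretreated replicate 1 (1.53, 0.146) or pretreated replicate 3 (1.88, 0.142); the lowest of the 4 settings' values was 1.39 (adjusted p = 0.341, numbering as a block). Where the replicate number was used as a block, which the arrays bear out for this comparison, the call held (1.91 ± 0.37, adjusted p = 0.0364).

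Of the 8 members, 2 rose with pretreatment at 48 h, Ccr8 and Ccl4, where 2.71% of all genes rose and 8.64% were called, and the same 2 rose at 72 h, where 3.78% rose and 9.69% were called. The median over the members was 0.14 at 48 h and 0.11 at 72 h, beside 0.008 and 0.02 over all genes. Macrophage transcripts were higher with pretreatment too, with a mean level of 6.46 to 6.82 against 6.13 to 6.21 at 48 h and 3.88 to 4.07 against 3.65 to 3.68 at 72 h; 4 of 14 markers rose at 48 h and 1 of 14 at 72 h. The 48 h arrays without peptide had as high a macrophage level (6.50 to 6.84) with Ccl4 at 7.29 to 8.01, below every pretreated array, but they differ from the pretreated group in antigen and medium as well. The part of macrophage RNA in the Ccl4 and Ccr8 results was not tested.

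With antigen in the poor media, Ccl4 rose in low leucine only by the test, and the difference between media was not shown. With OVA it was 7.58, 7.64 and 7.91 in low arginine, 8.35, 7.82 and 8.47 in low leucine, and 7.78, 7.79 and 8.44 in low lysine. Without peptide it was 8.01 and 7.29, then 7.64, 7.52 and 7.67, then 7.65, 7.53 and 7.48. The change was 0.06 ± 0.22 in low arginine (adjusted p = 0.867), 0.60 ± 0.20 in low leucine (1.52-fold, 95% interval 1.14 to 2.02, adjusted p = 0.0187) and 0.45 ± 0.20 in low lysine (adjusted p = 0.0926), and the test of a difference between the 3 gave an adjusted p of 0.766. The low leucine call was lost with quantile normalization (0.29, adjusted p = 0.32) and without OVA replicate 1 (0.54, 0.0659), OVA replicate 3 (0.47, 0.102) or replicate 2 of the group without peptide (0.56, 0.0556), while centring brought low lysine to 0.64 (adjusted p = 0.0215). At 72 h antigen raised Ccl4 from 3.68, 5.13 and 4.61 to 7.24, 6.50 and 5.39, by 1.90 ± 0.53 (3.74-fold, 1.67 to 8.39, adjusted p = 0.014). That call was lost with the numbering as a block (1.91 ± 0.86, adjusted p = 0.193) and without replicate 1 of either group (1.51, 0.0602, and 1.47, 0.0618).

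Low arginine and low leucine with OVA were a pair in which same-numbered arrays deviated together, so the fit with the replicate number as a block is given beside the other. Ccl4 was lower in low arginine by -0.51 ± 0.20 without the block (adjusted p = 0.362) and by -0.51 ± 0.12 with it (adjusted p = 0.026). The block was fitted on these 2 groups alone; without the block, these 2 groups gave -0.51 ± 0.16 for Ccl4 (adjusted p = 0.121). The count of all genes called in this pair was 158 in the fit of all groups, 879 in these 2 groups alone and 1404 with the block added. In the fit without the block, 0 of 8 members passed in this pair, where 0.712% of all genes did, 0 of 8 between arginine and lysine (3.22%) and 0 of 8 between leucine and lysine (1.88%). At an unadjusted p under 0.05 limma gave 1, 0 and 2 members in these pairs. Against full medium with OVA, Ccl4 differed by -0.43 ± 0.20 in low arginine (adjusted p = 0.286), with all 3 arrays below full medium, as for 15.7% of all genes. Fitted on these 2 groups alone, the adjusted p was 0.0466, the 1 pass among 14 alternatives. Ccl4 differed by 0.08 ± 0.20 in low leucine (adjusted p = 0.941) and -0.14 ± 0.20 in low lysine (adjusted p = 0.713).

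Ccl5 was lower with OVA in the poor media than in full medium, past the threshold in low leucine only. With OVA in full medium it was 8.11, 7.90 and 8.98. It was 7.53, 7.67 and 7.64 in low arginine, 7.37, 7.30 and 7.45 in low leucine, and 8.17, 7.47 and 7.52 in low lysine. All arrays of low arginine and low leucine were below full medium, as for 15.7% and 12.9% of all genes, and low lysine overlapped it. The difference was -0.95 ± 0.26 in low leucine (0.517-fold, 95% interval 0.357 to 0.748, adjusted p = 0.0464), -0.72 ± 0.26 in low arginine (adjusted p = 0.13) and -0.61 ± 0.26 in low lysine (adjusted p = 0.145). Full-medium replicate 3 is the highest array: without it the low leucine difference was -0.63 (adjusted p = 0.337), without full-medium replicate 1 it was -1.06 (0.0713), and without low leucine replicate 1, 2 or 3 it was -0.95 (0.135), -0.92 (0.169) or -0.99 (0.113). Centring (adjusted p = 0.0533), quantile normalization (-0.87, 0.0935) and a fit without an intensity trend (0.0516) also ended the call.

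Counted over the members, 1 of 8 was called between low arginine and full medium (Ccr8, higher), where 1.51% of all genes were higher and 4.67% were called; 2 of 8 in low leucine (Ccr8 higher, Ccl5 lower), where 1.15% were higher, 1.56% lower and 2.72% called; and 1 of 8 in low lysine (Ccr8, higher), where 2.49% were higher and 8.73% called. The medians over the members were -0.32, 0.12 and -0.16, beside 0.007, 0.002 and 0.024 over all genes. Of 14 macrophage markers 0, 1 and 0 were called lower and 0 higher, with medians of -0.06, -0.36 and -0.03. Their mean level was 6.13 to 6.21 in full medium, 6.0 to 6.14 in low arginine, 5.68 to 6.09 in low leucine, where every array was below full medium, and 5.88 to 6.27 in low lysine. CD8 T and NK cell markers had a mean level of 5.63 to 5.75 in full medium, 5.30 to 5.36 in low arginine and 5.20 to 5.46 in low leucine, both below full medium on every array, and 5.58 to 5.66 in low lysine; 2, 1 and 1 of 9 were called lower and 0, 0 and 1 higher. Both kinds of cell can express Ccl5, and their part in its differences was not tested. B cell markers were higher in low lysine, where 4 of 6 rose.

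Ccl5 did not follow antigen in the poor media, where its differences were -0.01 ± 0.29, -0.08 ± 0.26 and 0.41 ± 0.26 in low arginine, leucine and lysine (adjusted p = 0.985, 0.814 and 0.242). At 72 h in full medium it rose with antigen, from 4.64, 5.14 and 4.69 to 6.0, 5.25 and 5.94, by 0.91 ± 0.25 (1.87-fold, 95% interval 1.29 to 2.73, adjusted p = 0.0121). The call was lost without OVA replicate 1 (0.77, adjusted p = 0.0534) or replicate 3 (0.80, 0.0514) and with the replicate number as a block (0.0508). With pretreated macrophages at 72 h it was 4.88, 4.97 and 5.16, below every OVA array, by -0.73 ± 0.25 (0.604-fold, 0.416 to 0.879, adjusted p = 0.0918). Of all genes, 13.3% had arrays separated in that direction. Without OVA replicate 2 the Ccl5 difference was -0.97 ± 0.22 (adjusted p = 0.0277), the 1 pass among 14 alternatives. Leaving out 1 array gave between -0.97 and -0.59, with adjusted p up to 0.281. At 48 h the effect of pretreatment was 0.08 ± 0.26 (adjusted p = 0.917). The times were measured on different arrays, so the difference between them was not tested.

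At 72 h antigen raised 2 of the 8 members, Ccl4 and Ccl5, where 20.7% of all genes rose and 38.2% were called, and lowered 0. The median over the members was 0.49, beside 0.02 over all genes. On the same arrays 9 of 14 macrophage markers and all 15 mesothelial and stromal markers fell, where 17.4% of all genes did, and 9 of 11 CD4 T cell genes rose. Markers of CD8 T and NK cells, which also express Ccl4 and Ccl5, had a mean level of 3.98 to 4.19 without peptide, 5.01 to 5.43 with OVA and 4.66 to 5.08 with pretreatment; 3 of 9 measured rose with antigen and 0 fell. Of the 9, 4 lay below the array median both without peptide and with OVA (Cd8a, Ncr1, Klrb1c and Klra8), and the other 5 did not. The part of these changes in sorted-cell makeup in the 72 h results was not tested.

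**Figure D4:**
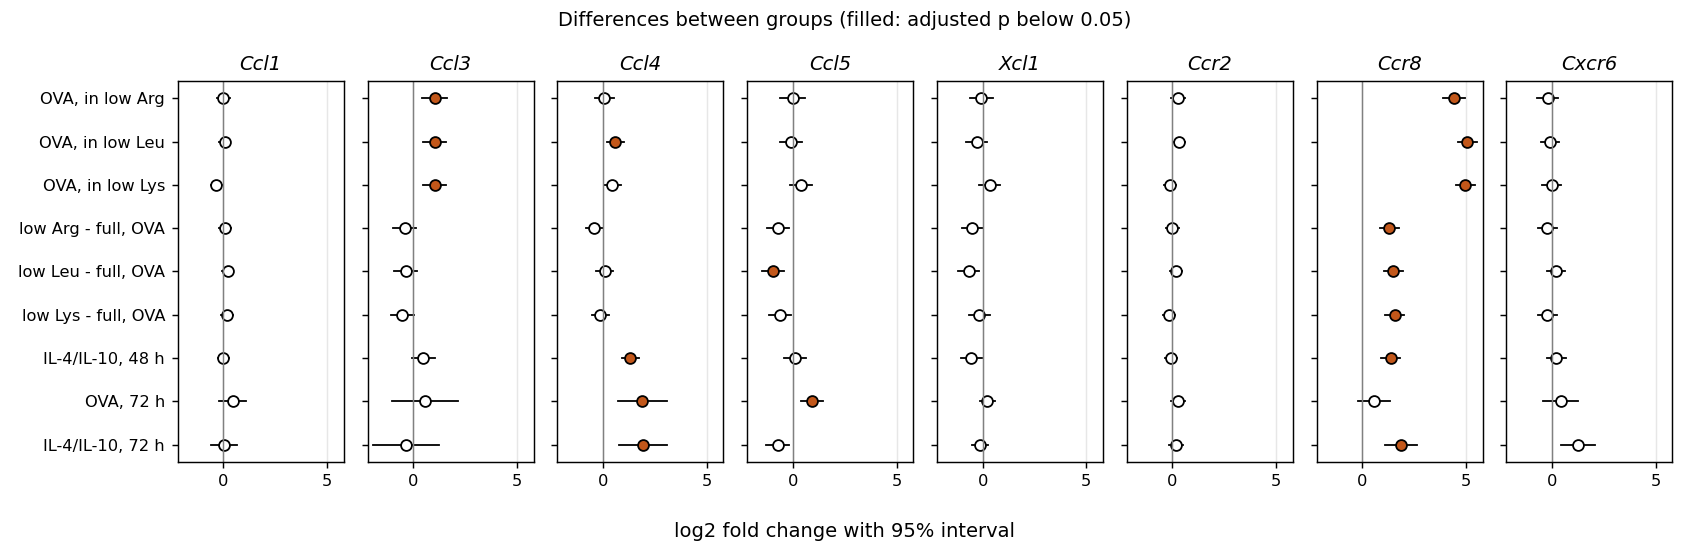
Log2 fold change of the 8 genes in 9 of the comparisons, with 95% intervals from the limma fit; filled points have an adjusted p below 0.05. Ccr8 lies to the right of 0 in every row, Ccl3 is filled only in the 3 rows for antigen in the poor media, and the 72 h intervals are wider than those at 48 h for Ccl3 and Ccl4.

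Ccl1, which encodes a ligand of CCR8, did not follow its receptor. On the 48 h arrays it lay between 4.55 and 5.30, below the array medians of 5.44 to 5.75, and its 10 differences lay between -0.34 and 0.21. The largest was with antigen in low lysine, 4.96, 4.86 and 4.81 against 5.29, 5.06 and 5.30 without peptide, by -0.34 ± 0.13 (adjusted p = 0.0554). It passed when low genes were left out (adjusted p = 0.0435), with the Y-linked level as a block (0.0409) and without replicate 2 of the group without peptide (-0.42, 0.0394). These were 3 of 15 alternatives, whose differences ran from -0.42 to -0.14 with adjusted p up to 0.46. At 72 h Ccl1 lay between 3.25 and 3.74 on 7 of the 9 arrays, and read 4.57 on OVA replicate 2 and 4.12 on pretreated replicate 2; its differences of 0.44 ± 0.29 with antigen and 0.03 ± 0.29 with pretreatment did not pass (adjusted p = 0.283 and 0.97).

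Xcl1 was not called in any comparison. With OVA at 48 h it was 7.20, 6.54 and 6.75 in full medium, 6.33, 6.03 and 6.64 in low arginine, 5.82, 6.21 and 6.42 in low leucine, and 6.70, 6.67 and 6.63 in low lysine. The low leucine arrays were all below full medium, as for 12.9% of all genes, by -0.68 ± 0.25 (0.625-fold, 95% interval 0.437 to 0.893, adjusted p = 0.201). With pretreated macrophages Xcl1 read 7.11, 6.04 and 5.71, a difference of -0.54 ± 0.25 (adjusted p = 0.217) that became -0.95 ± 0.20 (adjusted p = 0.00663) without pretreated replicate 1. That was the 1 pass among 15 alternatives. Leaving out 1 array gave between -0.95 and -0.25, with adjusted p up to 0.629. Without peptide the 8 arrays lay between 6.17 and 6.51. At 72 h Xcl1 lay between 3.16 and 3.99, and neither comparison passed (adjusted p = 0.335 and 0.698).

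Across the 3 poor media, the antigen effect differed past the threshold for 0 of the 8 members (0.149% of all genes were called), and 0 had an unadjusted p under 0.05. Levels without peptide differed between the media for 0 of 8 (0.00902% of all genes), and 1 member, Ccl1, had an unadjusted p under 0.05.

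Among the partners of these ligands and receptors, few differences passed the threshold. Ccr1, which binds CCL3 and CCL5, rose with pretreatment at 48 h, by 0.76 ± 0.17 (adjusted p = 0.00614), and passed in no other comparison, and Ccr3, which binds CCL5, passed in none. Xcr1, the receptor for XCL1, fell with antigen in low leucine by -0.85 ± 0.19 (adjusted p = 0.000871), with -0.45 ± 0.21 in low arginine (adjusted p = 0.109) and -0.33 ± 0.19 in low lysine (adjusted p = 0.182). Of the CCR2 ligands, Ccl2 and Ccl7 fell with antigen at 72 h, by -5.73 ± 0.71 and -4.36 ± 0.66 (adjusted p = 7.15e-05 and 0.000285), and Cxcl16, the ligand of CXCR6, fell by -3.76 ± 0.26 (adjusted p = 1.26e-06). Stromal and macrophage transcripts fell on the same arrays, as given above, and their part in these falls was not tested. At 48 h none of Ccl2, Ccl7, Ccl12 and Cxcl16 passed in any comparison.

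Of 32 other chemokine ligands, 30 were measured. With OVA, Ccl22, a ligand of CCR4, was lower in each poor medium than in full medium, by -2.45 ± 0.31 in low arginine, -2.28 ± 0.31 in low leucine and -1.45 ± 0.31 in low lysine (adjusted p = 3.3e-05, 8.8e-05 and 0.00561). In all, 1, 3 and 3 of the 30 fell and 1, 0 and 1 rose. Of all genes, 3.17%, 1.56% and 6.24% fell and 1.51%, 1.15% and 2.49% rose. The falls included Ccl9 in low leucine (-1.06 ± 0.26, adjusted p = 0.0264), Ccl6 in low lysine (-1.08 ± 0.33, 0.0454) and Ccl17, the other CCR4 ligand, in low leucine (-0.75 ± 0.19, 0.0337) and low lysine (-0.78 ± 0.19, 0.0134), while Cxcl17 rose in low arginine (0.53 ± 0.15, 0.0483). With antigen in the poor media, Ccl6, a ligand of CCR1 made by myeloid cells, rose by 2.80 ± 0.37, 2.21 ± 0.33 and 2.21 ± 0.33 (adjusted p = 3.79e-06, 1.22e-05 and 1.6e-05), and in all 1, 3 and 3 of the 30 rose and 6, 7 and 7 fell. Of all genes, 17.2%, 21.8% and 18.4% rose and 12.2%, 19.5% and 12.6% fell. Ccl22 rose with antigen in low lysine (1.37 ± 0.31, adjusted p = 0.00178), and the falls were led by Cxcl12 (-0.92 ± 0.18) and Cxcl15 (-0.79 ± 0.18) in low arginine, Ccl27a (-1.09 ± 0.16) and Cxcl13 (-1.03 ± 0.38) in low leucine and Cxcl14 (-0.74 ± 0.15) in low lysine. With pretreatment at 48 h Ccl9 rose by 1.26 ± 0.26 (adjusted p = 0.00318), the 1 called of the 30, where 8.64% of all genes were called. At 72 h pretreatment raised Cxcl1 by 4.21 ± 0.70 and Ccl20 by 1.1 ± 0.26 and lowered Cxcl9 by -0.74 ± 0.12 (adjusted p = 0.00561, 0.0232 and 0.00572). Antigen at 72 h lowered 12 of 30 and raised 1, where 17.4% of all genes fell and 20.7% rose. The stromal-type ligands Cxcl13, Cxcl12 and Cxcl1 had the largest of these falls with antigen, -7.25 ± 0.86, -6.58 ± 0.62 and -6.28 ± 0.70.

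Of 20 other chemokine receptors, 19 were measured at 48 h and 15 at 72 h. With antigen in the poor media Ccr4, a receptor of Th2 and regulatory T cells, rose by 2.93 ± 0.25, 2.18 ± 0.22 and 2.72 ± 0.22 (adjusted p = 5.47e-09, 5.07e-08 and 2.06e-09). In all, 2 of the 19 rose in each medium and 6, 8 and 5 fell. Of all genes, 17.2%, 21.8% and 18.4% rose and 12.2%, 19.5% and 12.6% fell. Cxcr5, the receptor of follicular helper T cells, rose in low leucine (1.02 ± 0.22, adjusted p = 0.00074) and low lysine (1.00 ± 0.22, adjusted p = 0.00118). Cxcr1 fell by -1.42 ± 0.20, -1.07 ± 0.18 and -0.77 ± 0.18, and Ccr10 by -0.80 ± 0.18 in low arginine (adjusted p = 0.00213). Between the poor media, 1 of the 19 was called: Ccr7 was higher in low arginine than in low lysine (0.67 ± 0.17, adjusted p = 0.0278). Of all genes, 3.22% were called in that pair, 0.712% between arginine and leucine and 1.88% between leucine and lysine. Against full medium, the Th1-associated receptor Cxcr3 was lower with OVA in each poor medium, by -0.72 ± 0.19, -0.79 ± 0.19 and -0.82 ± 0.19 (adjusted p = 0.0243, 0.0186 and 0.00722). Cxcr5 was lower in low arginine (-1.07 ± 0.22, adjusted p = 0.00426). In these comparisons 0 of the 19 rose, where 1.51%, 1.15% and 2.49% of all genes did. Thus Ccr8 was higher where Cxcr3 was lower, on the same arrays and against the same controls.

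Pretreatment at 48 h raised 3 of the 19 and lowered 0, where 2.71% of all genes rose and 5.93% fell. They were Cxcr4 (1.09 ± 0.19, adjusted p = 0.000663), the lymph node homing receptor Ccr7 (0.98 ± 0.17, 0.000645) and Ccr1, as given above. At 72 h pretreatment raised 1 of 15 and lowered 2, where 3.78% of all genes rose and 5.91% fell. The Th17-associated receptor Ccr6 rose by 1.36 ± 0.25 (adjusted p = 0.00959). Cxcr3 and Cxcr5 fell, by -1.50 ± 0.33 and -1.22 ± 0.21 (adjusted p = 0.0186 and 0.00583). Antigen at 72 h raised 3 of 15 and lowered 2, where 20.7% of all genes rose and 17.4% fell. These counts lie near the shares of all genes. Cxcr3 (2.51 ± 0.33, adjusted p = 0.00011) and Cxcr5 (2.33 ± 0.21, adjusted p = 6.18e-06) rose most, and Cx3cr1 (-0.65 ± 0.22, adjusted p = 0.0354) was among the falls. Genes that carry the signal of chemokine receptors, such as G protein subunits, Dock2 and the integrins, were counted too. With antigen in low arginine, leucine and lysine, 8, 8 and 10 of 21 measured rose and 2, 3 and 2 fell. Of all genes, 17.2%, 21.8% and 18.4% rose and 12.2%, 19.5% and 12.6% fell. Between each poor medium and full medium 0 of the 21 rose and 1 fell, where 1.51%, 1.15% and 2.49% of all genes rose. The shares that fell were 3.17%, 1.56% and 6.24%. At 72 h 12 of 22 rose and 1 fell with antigen, where 20.7% of all genes rose and 17.4% fell. With pretreatment 2 rose and 2 fell, where 3.78% of all genes rose and 5.91% fell.

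The genes whose levels followed a member most closely over the 23 arrays at 48 h were found by Pearson's r among 4329 genes whose group means ranged over at least 1 log2 unit. All of these values share arrays, normalization and the antigen groups, and they are descriptions. For Ccr8 they were Chchd10 (r = 0.991), the early activation marker Cd69 (0.988) and Erg28 (0.987), and over the 9 arrays at 72 h r with Cd69 was 0.755. For Ccl3 they were Ccl6 (0.924), Lztfl1 (0.922) and Ecm1 (0.904), with 0.171, 0.184 and -0.338 at 72 h. For Ccl4 they were Kdm5b (0.853), Myh10 (0.846) and Furin (0.834), of which Furin had 0.723 at 72 h, Kdm5b -0.035 and Myh10 -0.588. For Ccl5 the closest was Ccl22 (0.801, but -0.699 at 72 h), followed by Gprin3 (0.776) and Rtp4 (0.758, and -0.433 at 72 h). The other members had weaker neighbours: Defb46 (0.787), Olfr1265 (0.758) and Krt31 (0.748) for Ccl1, Hspa1b (0.742), Ndufa4 (0.54) and Insig1 (0.534) for Xcl1, and Gpm6b (0.635), Ccdc173 (0.632) and Rhno1 (0.618) for Ccr2. For Cxcr6 they were Kdm5d (0.663) and Eif2s3y (0.647), both on the Y chromosome, and Mctp2 (0.604), with -0.054, 0.057 and -0.013 at 72 h. Among the members themselves, Ccl3 followed Ccr8 (0.77) and Ccl4 (0.73) at 48 h, and no other pair exceeded 0.55. At 72 h the same pairs had r of 0.02 and 0.38, and the closest pairs were Ccl4 with Cxcr6 (0.92), Ccr8 (0.88) and Ccr2 (0.84) and Cxcr6 with Ccr8 (0.82) and Ccr2 (0.82), over 9 arrays that share the pretreated group. Ccl3 and Ccl4 are neighbours on chromosome 11 in the RefSeq gene table, where Ccl1 and Ccl5 also lie, while Ccr2, Ccr8 and Cxcr6 are on chromosome 9 and Xcl1 is on chromosome 1.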

How the data were processed

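CD4+ T cells were measured on 23 MoGene-2_0-st arrays at 48 h and 9 HT_MG-430_PM arrays at 72 h, each from 100 ng of RNA per the labels' protocols. The authors deposited 1 log2 value for each probe set and array; the submitters' processing notes name RMA and Affymetrix Expression Console 1.1; the median of an array lay between 5.44 and 5.75 (48 h) or between 3.87 and 4.04 (72 h), and which arrays were normalized together is not given in the sources used here. Of 41345 probe sets at 48 h and 45037 at 72 h, 23521 and 28898 named 1 gene, 1814 and 551 several and 16010 and 15588 none; a gene was represented by its probe set with the highest mean. Each platform was fitted on its own with limma 3.58.1 in R 4.3.3 (lmFit on group means, eBayes with an intensity trend, two-sided, Benjamini-Hochberg over all genes of a comparison, threshold 0.05), in 12 comparisons and 2 moderated F tests, so that 96 differences of members were tested. Fold changes are on the log2 scale of RMA, which understates changes of dim genes. No pair of arrays held identical values. The fit was tested on 5 simulated data sets for each platform, with 200 genes changed and independent noise around 1 mean for each gene. Of genes changed 4-fold it called 99.7% at 48 h (low arginine against full medium) and 93.9% at 72 h (OVA against no peptide). For genes changed 1.5-fold the shares were 34.3% and 31.6%. False calls averaged 8.2 and 4.8 a data set. In the data 1036 and 6527 genes were called in these comparisons, so the rates need not carry over.

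The members and lists were chosen with earlier results of these data known. Named genes were the 8 members, their partners, in each comparison up to 3 called genes of each chemokine list with the largest change, and the 3 genes most correlated with each member at 48 h. Samples were grouped by their titles. Replicate numbers of the titles were checked for pairing by correlating deviations from group means over 5000 genes: numbers were taken to pair arrays where r was above 0.1 in every pair, which held only for pretreatment at 72 h (r 0.16 to 0.26) and for the pair of low arginine and low leucine (r between 0.29 and 0.39). The alternatives were 8 planned settings (centring, quantile normalization, the mean of all probe sets, no intensity trend, low genes left out, the compared groups alone, and the replicate number or the submitters' numbering as a block, both on the compared groups alone), leaving out each array, and 2 added after seeing the data: each probe set of a member on its own at 72 h, and the Y-linked level (below or above 6) as a block at 48 h. Levels of a gene not on an array, and of some genes of the lists, are not analysed here.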

Additional observations from a re-analysis of the deposited data

How the results depend on the processing

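With 1 choice changed at a time, except that both kinds of block were fitted on the compared groups alone and so change 2, 216 of the 245 alternatives to a member's called difference stayed called in the same direction, 29 were lost and 0 reversed; of 1491 alternatives to an uncalled difference or F test 21 became called. Signs that turned in 81 alternatives were of differences called on neither side (up to 0.30) and count as unturned. The members' losses stand beside their results. Counts of all genes called by limma moved as follows, and the cause was not tested. Fitting the compared groups alone, then with the replicate number as a block, turned 1036 genes into 2472 and 2685 for low arginine against full medium (members called 1, then 2 and 2), 603 into 1654 and 1768 for low leucine, and 1936 into 968 and 1018 for low lysine. It turned 158 into 879 and 1404 for arginine against leucine (members 0, then 1 with the block), 715 into 139 and 228 for arginine against lysine, 416 into 50 and 77 for leucine against lysine, and 2 into 0 and 1 for media without peptide; for pretreatment at 72 h the compared groups alone gave 1009 in place of 1656. The submitters' numbering as a block gave 1404, 145, 0 and 1 for the 3 pairs of media and media without peptide. For pretreatment at 72 h it gave 0 genes and 0 members, while for antigen at 72 h Ccr8 became called. That block could not be fitted for poor against full medium. Other replicate blocks changed only the member calls named in the report and that of Ccl5 in low arginine (-0.72 ± 0.17, adjusted p = 0.0173), where numbers do not pair the arrays. Quantile normalization gave 233 for leucine against lysine and 64 for the interaction (33 as reported), leaving out low genes 50, and the Y-linked block, added after seeing the data, 53 and, for media without peptide, 7. The members called in low leucine fell from 2 to 1 with centring, quantile normalization or no trend, and at 72 h with pretreatment from 2 to 1 with the mean of all probe sets, no trend or the compared groups alone.

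Leaving out 1 array gave 1148 to 2111 genes for pretreatment at 48 h (1916 as reported), 577 to 710, 339 to 401 and 903 to 3183 for low arginine, leucine and lysine against full medium, 3857 to 5543 for antigen in low arginine (6517), 48 to 78, 329 to 1021 and 84 to 1414 for the 3 pairs of media, 8 to 218 for the interaction, 0 to 10 for media without peptide, and 495 to 2225 for pretreatment at 72 h. Members called ranged from 1 to 2 for low leucine and for antigen in low arginine, 0 to 2 for antigen at 72 h and 1 to 3 for pretreatment at 72 h. A group left with 1 array is assumed to vary like the others.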
